A study of Mus musculus with 9 samples.

Results

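Cytochrome c oxidase, complex IV of the respiratory chain, has several subunits that exist as tissue isoforms, and 9 of its genes were followed here in newborn mouse hearts that had lost copies of the microRNA *miR-1*. The genes were *Cox4i1* and *Cox4i2*, *Cox6a1* and *Cox6a2*, *Cox7a2* and *Cox7a1*, *Cox8a* and *Cox8b*, which form 4 pairs, and *Cox7a2l*, a relative of the subunit 7a genes. They were chosen by name, for having a ubiquitous form and a form restricted to heart, muscle or another tissue, and are 9 of the 22180 genes that the arrays measured with a probe set of their own. Each had exactly 1 such probe set, so every gene below is 1 series of 9 values. RNA came from whole hearts taken at postnatal day 2 from mice of mixed 129 x C57BL/6 strain, and 3 Mouse Gene ST 2.0 arrays from Affymetrix were read for each genotype. Wild-type mice carried both miR-1 loci intact. In the miR-1-1 null mice both copies of the *miR-1-1* precursor had been deleted in every cell from the germline on, with a floxed neomycin cassette used for selection, and *miR-1-2* was not targeted. The double-heterozygous mice (miR-1-2 +/-: miR-1-1 +/-) kept 1 copy of each locus, so both mutants had lost 2 of 4 alleles. No mouse without any *miR-1* is among these arrays, and nothing says whether an array held 1 heart or which hearts were littermates, so p-values measure the spread between these arrays.

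The oxidase takes electrons from cytochrome c and passes them to oxygen. Its catalytic core is encoded by mitochondrial DNA, and nuclear subunits surround it and set its stability and regulation. In mammals subunits 6a, 7a and 8 occur in a ubiquitous form (*Cox6a1*, *Cox7a2*, *Cox8a*, often called the liver forms) and in a contractile muscle form (*Cox6a2*, *Cox7a1*, *Cox8b*), and in rodent heart the muscle forms are known to take over around and after birth. Subunit 4 differs: *Cox4i1* is the general form, also in heart, while *Cox4i2* is known from lung and from the cells around small vessels and for its induction by low oxygen. *Cox7a2l* encodes a relative of subunit 7a that takes part in joining complex IV to complex III, and the 129 and C57BL/6 strains are known to carry different alleles of it. Processed pseudogenes are known for several of these genes, and signal from such copies cannot be told apart here. The muscle-form genes *Cox6a2*, *Cox7a1* and *Cox8b* all lie on mouse chromosome 7 in the RefSeq gene table of GRCm38.p6.

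The stretch just before the start of transcription is shown for the genes on which the results turn, to set the ubiquitous forms beside the muscle forms. The RefSeq promoter table of GRCm38.p6 held 6 of the 9 genes (*Cox6a1*, *Cox7a2*, *Cox7a1*, *Cox7a2l*, *Cox8a* and *Cox8b*), and each sequence is the 250 bases before the annotated start, on the gene's own strand. Capitals mark every E-box (CANNTG, the letters bound by many basic helix-loop-helix factors) and every CCGGAA on either strand, the core read by GABPA, an activator of many mitochondrial genes.
*Cox6a1*, chr5:115348959-115349208, minus strand: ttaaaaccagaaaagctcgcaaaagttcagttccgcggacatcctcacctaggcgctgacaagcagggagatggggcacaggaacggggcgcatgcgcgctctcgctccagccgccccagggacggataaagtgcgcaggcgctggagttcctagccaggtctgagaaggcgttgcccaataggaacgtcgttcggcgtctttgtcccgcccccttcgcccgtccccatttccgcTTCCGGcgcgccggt
*Cox8a*, chr19:7217617-7217866, minus strand: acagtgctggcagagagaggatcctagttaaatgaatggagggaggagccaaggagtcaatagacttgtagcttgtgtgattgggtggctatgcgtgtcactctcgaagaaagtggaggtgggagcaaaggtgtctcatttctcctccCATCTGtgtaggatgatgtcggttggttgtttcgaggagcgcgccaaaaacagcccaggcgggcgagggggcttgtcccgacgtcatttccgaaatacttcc
*Cox7a2*, chr9:79759854-79760103, minus strand: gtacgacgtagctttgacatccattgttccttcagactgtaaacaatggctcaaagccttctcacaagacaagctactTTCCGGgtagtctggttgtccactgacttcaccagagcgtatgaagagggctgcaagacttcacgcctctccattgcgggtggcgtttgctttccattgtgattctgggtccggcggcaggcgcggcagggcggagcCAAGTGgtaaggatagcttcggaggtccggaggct
*Cox7a1*, chr7:30183921-30184170, plus strand: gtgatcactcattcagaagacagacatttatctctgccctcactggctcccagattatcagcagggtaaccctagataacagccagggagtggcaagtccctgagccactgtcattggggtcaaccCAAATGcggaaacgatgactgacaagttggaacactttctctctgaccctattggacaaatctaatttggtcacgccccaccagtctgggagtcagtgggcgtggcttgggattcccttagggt
*Cox8b*, chr7:140900447-140900696, minus strand: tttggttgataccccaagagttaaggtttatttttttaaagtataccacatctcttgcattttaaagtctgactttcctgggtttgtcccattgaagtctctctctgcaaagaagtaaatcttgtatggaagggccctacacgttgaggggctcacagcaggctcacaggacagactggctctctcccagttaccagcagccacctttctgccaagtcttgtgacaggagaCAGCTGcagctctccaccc

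Among these 6 promoters, CCGGAA stood in those of *Cox6a1*, 15 bases before the start, and of *Cox7a2*, 172 bases before it. The same letters were found in 3952 of all 32851 promoters of the table over the same 250 bases. *Cox6a1* also held the palindrome read by NRF1, an activator of mitochondrial genes, at 162 and at 117 bases before the start, a motif present in 3.74% of promoters. GGGCGG, the SP1 box, stood in *Cox6a1*, *Cox7a2* and *Cox7a2l*, against 32.7% of all promoters. Neither muscle form in the table held any of these 3 motifs. An E-box stood in 5 of the 6 promoters, against 66.2% of all, and was the only motif of those searched in *Cox7a1*, 124 bases before the start, in *Cox8b*, 19 bases before it, and in *Cox8a*, 102 bases before it. No match was found to AAGGTCA, the element read by the ERR receptors (4.08% of all promoters), to GTGGGAA, read by RBPJ (5.42%), or to the MEF2 (2.92%) and CArG box (1.47%) consensus. The base composition ranged from 47.2% G and C in *Cox8b* to 62.8% in *Cox6a1*, against a median of 52.4% over all promoters. Both strands were searched, and no matches of different motifs overlapped in these promoters. A match is a description of letters, and no factor was measured at these sites.

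None of the 9 genes passed an adjusted threshold, and the differences from wild-type hearts were small. On the log2 scale *Cox6a1* and *Cox8a*, both ubiquitous forms, were 0.26 and 0.31 higher on average in null hearts and 0.32 and 0.39 higher in double-heterozygous hearts. *Cox7a1*, a muscle form, was 0.32 lower in null and 0.19 lower in double-heterozygous hearts. At an adjusted p under 0.05 from limma (Benjamini-Hochberg over all genes), 0 of 9 were called in null against wild-type hearts, where 0% of all genes were, and 0 of 9 in double-heterozygous against wild-type hearts, where 0.0180% of all genes were. The study's own thresholds for its arrays, a fold above 1.5 or below 0.5 at an unadjusted p under 0.0025, also called 0 of 9 in both, against 0.126% and 0.541% of all genes. At an unadjusted p under 0.05, *Cox6a1* and *Cox8a* were on the higher side and *Cox7a1* on the lower side in each comparison. For null hearts these 2 and 1 of 9 genes stand beside 2.57% of all genes on the higher and 3.15% on the lower side, and for double-heterozygous hearts beside 4.45% and 6.15%. The 2 comparisons share the 3 wild-type arrays.

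**Figure D1:**
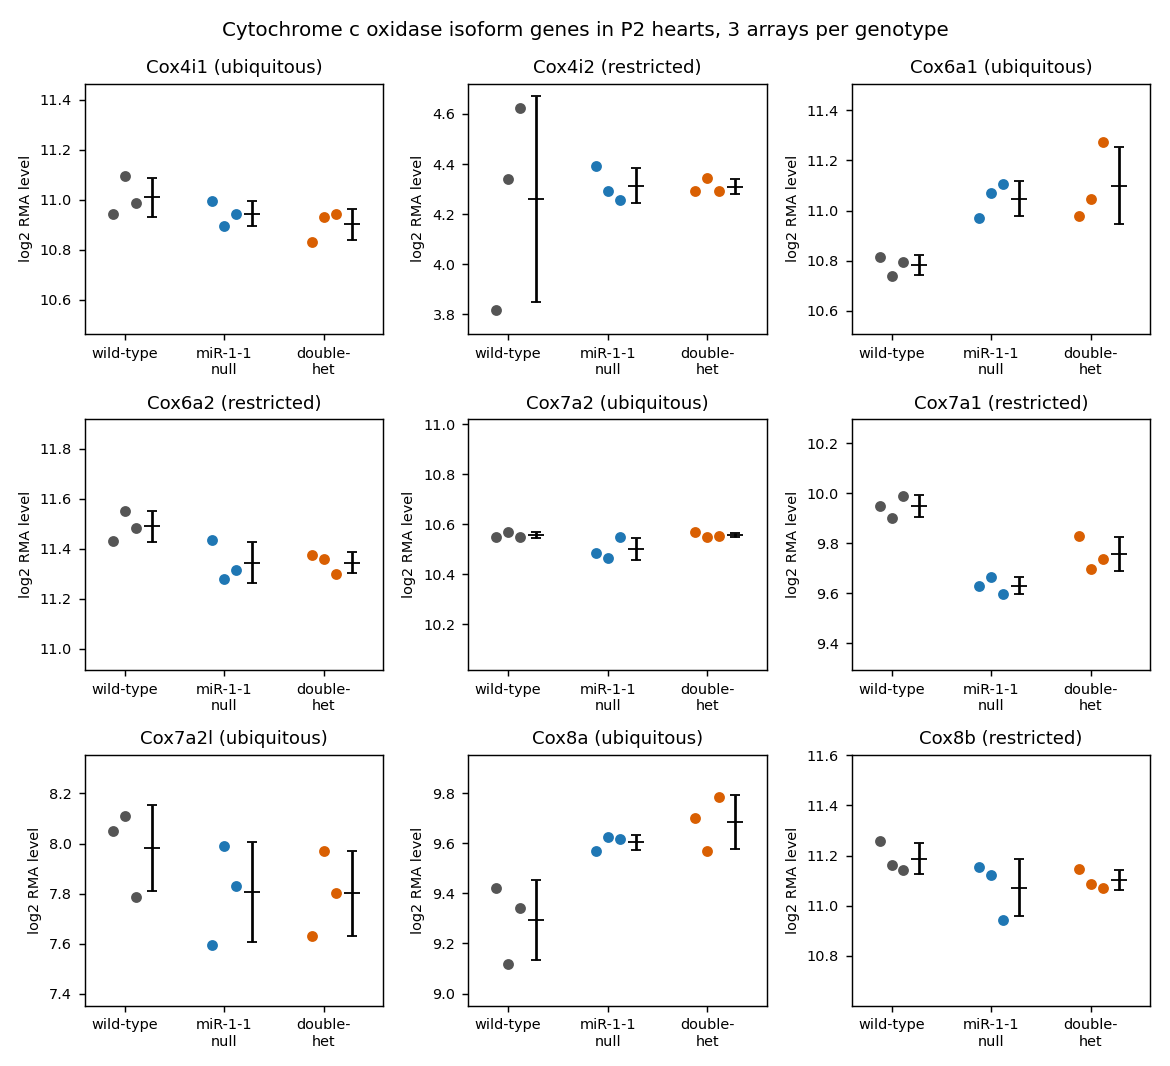
Log2 RMA level (y axis) of the 9 isoform genes on each of the 9 arrays by genotype (x axis), with the mean and SD of 3 arrays as a black bar; every panel spans 1 log2 unit, and levels are not comparable between panels. The wild-type arrays of *Cox6a1* and *Cox8a* lie below all mutant arrays, those of *Cox7a1* lie above all mutant arrays, and *Cox7a2* varies least, over 0.103 in all.

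*Cox6a1* encodes the ubiquitous form of subunit 6a. Its levels were 10.82, 10.74 and 10.80 on the wild-type arrays, 10.97, 11.07 and 11.10 on the null arrays, and 10.98, 11.05 and 11.27 on the double-heterozygous arrays. All 6 mutant arrays were thus above all 3 wild-type arrays. The fold change was 1.20 in null hearts (95% confidence interval 1.03 to 1.41, limma adjusted p = 0.871) and 1.25 in double-heterozygous hearts (1.06 to 1.46, adjusted p = 0.337). The exact permutation test gave p = 0.1 for both, the smallest that 3 against 3 arrays allow. Leaving out double-heterozygous replicate 9, the highest array, lowered the log2 difference there from 0.32 to 0.23.

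*Cox6a2*, its muscle counterpart, encodes the form that predominates in adult heart and skeletal muscle. It was at 11.43, 11.55 and 11.48 in wild-type, 11.44, 11.28 and 11.31 in null, and 11.38, 11.36 and 11.30 in double-heterozygous hearts. Null replicate 4 lay within the wild-type range, while the 3 double-heterozygous arrays were below all wild-type arrays. The log2 difference was -0.15 in null (95% confidence interval -0.34 to 0.05, limma adjusted p = 0.912) and -0.14 in double-heterozygous hearts (-0.34 to 0.05, adjusted p = 0.580). With arrays left out it ranged from -0.19 to -0.11 and from -0.17 to -0.11.

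*Cox7a1*, the muscle form of subunit 7a, had the largest difference among the muscle forms in both comparisons. Its wild-type arrays were at 9.95, 9.90 and 9.99, its null arrays at 9.63, 9.67 and 9.60, and its double-heterozygous arrays at 9.83, 9.70 and 9.74. Both mutants lay below every wild-type array, and the double-heterozygous arrays were all above the null arrays, by as little as 0.03 between the nearest arrays. The fold change was 0.803 in null hearts (95% confidence interval 0.706 to 0.914, limma unadjusted p = 0.0038, adjusted p = 0.723) and 0.876 in double-heterozygous hearts (0.770 to 0.996, unadjusted p = 0.0445, adjusted p = 0.456). The null value is a log2 difference of -0.32 with a standard error of 0.08, and it stayed between -0.34 and -0.29 whichever array was left out.

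*Cox7a2*, the ubiquitous form of the same subunit, differed little between genotypes. Its 9 values lay between 10.47 and 10.57, a span of 0.103, the narrowest of the 9 genes. They were 10.55, 10.57 and 10.55 in wild-type, 10.49, 10.47 and 10.55 in null, and 10.57, 10.55 and 10.55 in double-heterozygous hearts. The fold change was 0.962 in null (95% confidence interval 0.852 to 1.09) and 1.00 in double-heterozygous hearts (0.886 to 1.13).

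*Cox8a* encodes the ubiquitous form of subunit 8, the smallest of these proteins and close to the catalytic core. It was at 9.42, 9.12 and 9.34 on the wild-type arrays, 9.57, 9.62 and 9.62 on the null arrays, and 9.70, 9.57 and 9.79 on the double-heterozygous arrays. The mutant arrays were all above the wild-type arrays, of which replicate 2 was lowest. The fold change was 1.24 in null (95% confidence interval 1.05 to 1.46, limma adjusted p = 0.868) and 1.31 in double-heterozygous hearts (1.11 to 1.55, adjusted p = 0.274). Without wild-type replicate 2 the log2 differences were 0.22 and 0.30, in place of 0.31 and 0.39.

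*Cox8b*, the muscle form of subunit 8 in rodents, was at 11.26, 11.16 and 11.14 in wild-type, 11.15, 11.12 and 10.94 in null, and 11.15, 11.09 and 11.07 in double-heterozygous hearts. The groups overlapped in both comparisons. The log2 difference was -0.12 in null (95% confidence interval -0.32 to 0.09) and -0.09 in double-heterozygous hearts (-0.29 to 0.12). Without null replicate 6, the lowest array, the first was -0.05, and without wild-type replicate 1, the highest, the second was -0.05.

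*Cox4i1*, the general form of subunit 4, was at 10.94, 11.10 and 10.99 in wild-type, 10.99, 10.90 and 10.94 in null, and 10.83, 10.93 and 10.94 in double-heterozygous hearts, with overlapping groups and log2 differences of -0.06 and -0.11. Without wild-type replicate 2 these were -0.02 and -0.06, and without wild-type replicate 1 they were -0.10 and -0.14. *Cox4i2*, the form induced by low oxygen, was the dimmest of the 9 probe sets and the least even among wild-type hearts. Its wild-type arrays were at 3.82, 4.34 and 4.63, while the 6 mutant arrays lay between 4.26 and 4.39, inside the wild-type range. The log2 differences of 0.05 in both mutants have 95% confidence intervals of -0.34 to 0.45 and -0.34 to 0.44. Their sign rests on wild-type replicate 1, without which they were -0.17 in both.

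*Cox7a2l* was at 8.05, 8.11 and 7.79 in wild-type, 7.60, 7.99 and 7.83 in null, and 7.63, 7.97 and 7.80 in double-heterozygous hearts. Within each genotype its SD was 0.17 to 0.20, as large as the log2 differences from wild-type of -0.17 and -0.18, and the groups overlapped. Without null replicate 4 the first was -0.07 and without double-heterozygous replicate 7 the second was -0.09, while without wild-type replicate 3 they were -0.27 and -0.28. Which strain's allele each heart carried is not given.

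**Figure D2:**
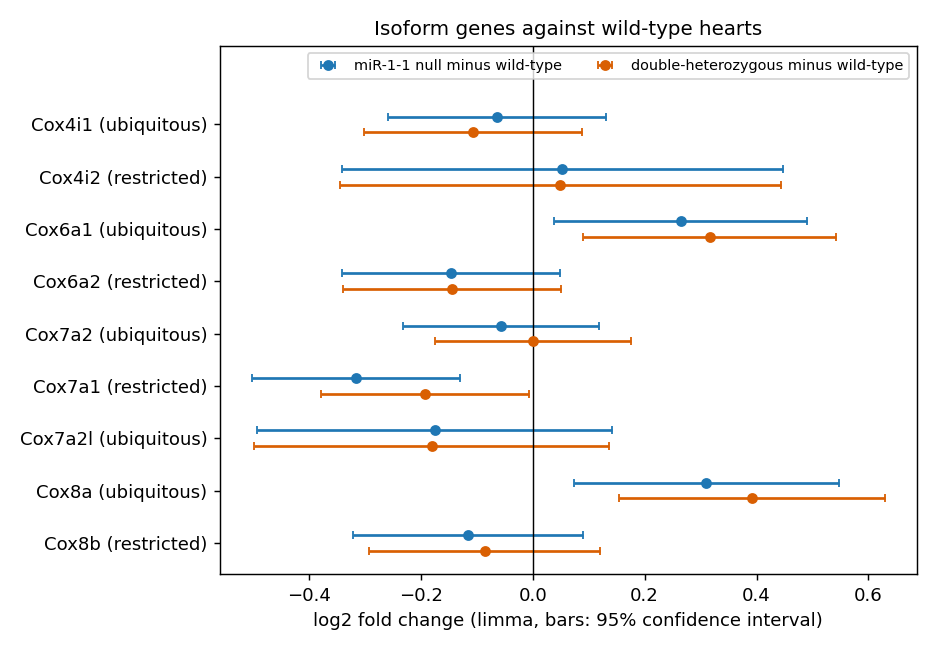
Log2 fold change against wild-type (x axis) for the 9 isoform genes (y axis) in miR-1-1 null and double-heterozygous hearts; points are limma estimates and bars are 95% confidence intervals. The intervals of *Cox6a1* and *Cox8a* lie above 0 and those of *Cox7a1* below 0 in both mutants before adjustment, and the other 6 genes have intervals that span 0.

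Counted by arrays, 2 of the 9 genes (*Cox6a1* and *Cox8a*) had all null arrays above all wild-type arrays, against 3.63% of all genes, and 1 (*Cox7a1*) had all of them below, against 4.63%. In double-heterozygous hearts 2 genes (*Cox6a1*, *Cox8a*) were all above, against 5.15% of all genes, and 2 (*Cox6a2*, *Cox7a1*) all below, against 7.95%. Between the mutants 0 of 9 genes passed an adjusted p under 0.05 (0% of all genes), the study's thresholds (0.302%) or an unadjusted p under 0.05 (7.39%). Their log2 differences, double-heterozygous minus null, ran from -0.04 for *Cox4i1* to 0.12 for *Cox7a1*. All double-heterozygous arrays were above all null arrays for *Cox7a1* and *Cox7a2*, 2 of 9 genes against 4.30% of all genes, and none of the 9 was the other way round, against 5.75%. The 95% confidence interval of that difference was -0.06 to 0.31 for *Cox7a1* and -0.12 to 0.23 for *Cox7a2*. For *Cox7a2* the nearest arrays were almost level, at 10.5506 in double-heterozygous replicate 8 and 10.5491 in null replicate 6.

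The 9 genes together were not moved in 1 direction. Their median log2 difference was -0.06 in null and -0.09 in double-heterozygous hearts, beside -0.01 and -0.02 over all genes and 0.00 and -0.04 over the 508 genes with a mean level between 7.86 and 11.39. Split by form, the 5 ubiquitous genes had medians of -0.06 and 0.00, and the 4 restricted genes of -0.13 and -0.12.

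The balance within a pair can be read as the log2 level of the restricted form minus that of the ubiquitous form on the same array, set to 0 at its wild-type mean. Levels of 2 probe sets cannot be ranked against each other, so only the change of this difference has a meaning. It is made of the values already given and so adds no independent evidence. For subunit 6a (*Cox6a2* minus *Cox6a1*) the wild-type arrays were at -0.09, 0.11 and -0.02, the null arrays at -0.24, -0.50 and -0.50, and the double-heterozygous arrays at -0.31, -0.39 and -0.68. The mean was -0.41 ± 0.15 (SD, n = 3) in null and -0.46 ± 0.20 in double-heterozygous hearts, which is 0.753 and 0.727 of the wild-type ratio.

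For subunit 8 (*Cox8b* minus *Cox8a*) the wild-type arrays were at -0.06, 0.15 and -0.09, the null arrays at -0.31, -0.40 and -0.57, and the double-heterozygous arrays at -0.45, -0.38 and -0.61. The mean was -0.43 ± 0.13 in null and -0.48 ± 0.12 in double-heterozygous hearts, or 0.744 and 0.718 of the wild-type ratio. For subunit 7a (*Cox7a1* minus *Cox7a2*) it was smaller, -0.26 ± 0.08 and -0.19 ± 0.06, with wild-type arrays between -0.06 and 0.05, null arrays between -0.34 and -0.19, and double-heterozygous arrays between -0.24 and -0.13. In these 3 pairs every mutant array was below every wild-type array. The larger difference was not always on the same side of a pair: in subunits 6a and 8 it was that of the ubiquitous gene, and in subunit 7a it was that of the muscle gene, while *Cox7a2* stayed within 0.103.

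**Figure D3:**
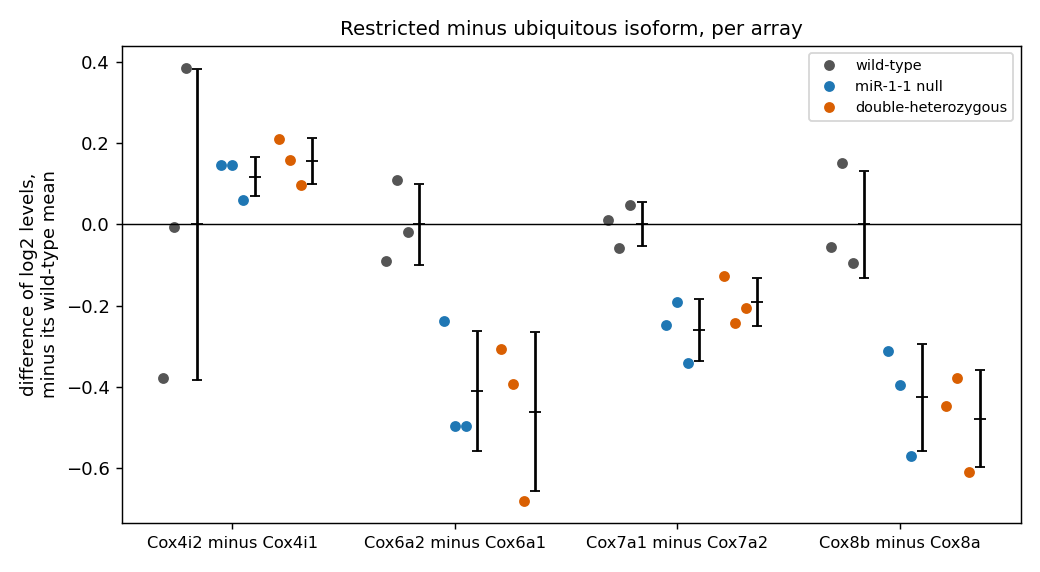
Restricted minus ubiquitous isoform on each array (y axis, difference of log2 levels, minus its wild-type mean) for the 4 pairs (x axis), with the mean and SD of 3 arrays as a black bar. All mutant arrays of *Cox6a2* minus *Cox6a1*, *Cox7a1* minus *Cox7a2* and *Cox8b* minus *Cox8a* lie below all wild-type arrays, and those of *Cox4i2* minus *Cox4i1* lie inside the wild-type range.

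The subunit 4 pair did not follow them. *Cox4i2* minus *Cox4i1* was at -0.38, -0.01 and 0.39 on the wild-type arrays, and its means of 0.12 ± 0.05 in null and 0.16 ± 0.06 in double-heterozygous hearts lay inside the wild-type spread (SD 0.38). Its sign rested on wild-type replicate 1, without which it was -0.07 and -0.03.

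Across the 9 arrays the members of the first pair mirrored each other. Pearson's r was -0.898 between *Cox6a1* and *Cox6a2*, and -0.720 after the mean of each genotype was removed. *Cox6a1* and *Cox8a* ran together at 0.891, or 0.559 without the genotype means, and *Cox6a2* against *Cox8a* gave -0.885 and -0.692. *Cox8a* and *Cox8b* were only loosely opposed (-0.431, and 0.133 without the genotype means), and *Cox7a1* and *Cox7a2* were not opposed (0.532 and -0.303). These are descriptions over 9 arrays that share a normalization, and the values that include the genotype means also carry the differences described above.

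The other nuclear subunits of the oxidase, which have no muscle form, had small mean differences between genotypes, though not all were measured tightly. Of 7 listed, 6 had a probe set of their own (*Cox5a*, *Cox5b*, *Cox6b1*, *Cox7b*, *Cox7c* and *Ndufa4*). Their log2 differences lay between -0.08 and 0.13 in null and between -0.04 and 0.11 in double-heterozygous hearts, with medians of -0.01 and 0.03, and 0 of 6 reached an unadjusted p under 0.05 in limma. The 95% confidence intervals of *Cox7b* were wide, -0.46 to 0.39 in null and -0.35 to 0.50 in double-heterozygous hearts. Those of *Cox7c*, at a level of 4.58 in wild-type hearts, were -0.26 to 0.53 and -0.29 to 0.51. *Ndufa4*, for example, was at 11.01 ± 0.01 in wild-type (SD, n = 3), 10.96 ± 0.09 in null and 11.02 ± 0.08 in double-heterozygous hearts, and *Cox5a* at 10.73 ± 0.05, 10.75 ± 0.06 and 10.76 ± 0.06. *Cycs*, which encodes the cytochrome c that feeds the enzyme, was at 9.95, 9.95 and 10.01 on average. The mitochondrially encoded core genes *mt-Co1*, *mt-Co2* and *mt-Co3* had no probe set with a single gene symbol and were not analysed here.

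Of the forms known from testis, *Cox6b2* was lower in both mutants. It was at 5.60, 5.15 and 5.28 in wild-type, 4.44, 4.25 and 5.10 in null and 4.76, 4.80 and 4.63 in double-heterozygous hearts. Its log2 differences were -0.75 (limma adjusted p = 0.751) and -0.62 (adjusted p = 0.351), with no overlap of arrays in either. *Cyct*, the testis cytochrome c, was dim, at 1.94, 1.87 and 1.72 in wild-type and 2.04, 2.90 and 2.44 in null hearts. That is a log2 difference of 0.62 with an adjusted p of 0.771 in limma, and of 0.40 without null replicate 5.

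Proteins that build the enzyme were measured with 26 of 30 listed genes, and 0 of 26 passed an adjusted p under 0.05 or the study's thresholds in either mutant. The median log2 difference was -0.04 in null and -0.08 in double-heterozygous hearts, with 11 and 7 of 26 above 0, beside 48.0% and 44.6% of all genes. At an unadjusted p under 0.05 there was 1 lower gene in null hearts, *Coa7* at -0.25, and there were 3 in double-heterozygous hearts, beside 3.15% and 6.15% of all genes. The 3 were *Cox15*, which makes the heme a of the core, at -0.36, *Lrpprc*, which stabilizes mitochondrial mRNAs, at -0.26, and *Higd2a* at -0.24.

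Regulators of mitochondrial genes were on the low side in double-heterozygous hearts. All 17 listed genes were measured, 0 passed an adjusted p under 0.05 or the study's thresholds, and 1 of 17 was above 0 there, where 44.6% of all genes were. Their median was -0.19, beside -0.02 over all genes, and in null hearts it was -0.09 with 6 of 17 above 0. *Ppargc1b*, a coactivator of mitochondrial genes, was at 6.03, 6.42 and 6.05 in wild-type, 5.63, 5.75 and 5.88 in null and 5.60, 5.86 and 5.58 in double-heterozygous hearts. That is -0.41 (limma unadjusted p = 0.0131, adjusted p = 0.859) and -0.49 (0.00547 and 0.287), with no overlap in either. Without wild-type replicate 2 these were -0.29 and -0.36. *Ppargc1a*, its better known relative, was at 8.25, 7.44 and 7.31 in wild-type and at 6.96, 7.00 and 7.00 in double-heterozygous hearts, a difference of -0.68 with an adjusted p of 0.339 in limma. Wild-type replicate 1, the female wild-type heart and the array with the highest mean brown fat marker level, was the highest of these. Without it *Ppargc1a* was at -0.38 in double-heterozygous and -0.08 in null hearts, in place of -0.68 and -0.38. *Mef2d*, a muscle transcription factor, was at -0.41 in double-heterozygous hearts (limma adjusted p = 0.332), and at -0.28 without wild-type replicate 1. *Tfb2m*, needed for transcription of mitochondrial DNA, was at -0.31 in null hearts (adjusted p = 0.871), and at -0.24 without wild-type replicate 3.

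**Figure D4:**
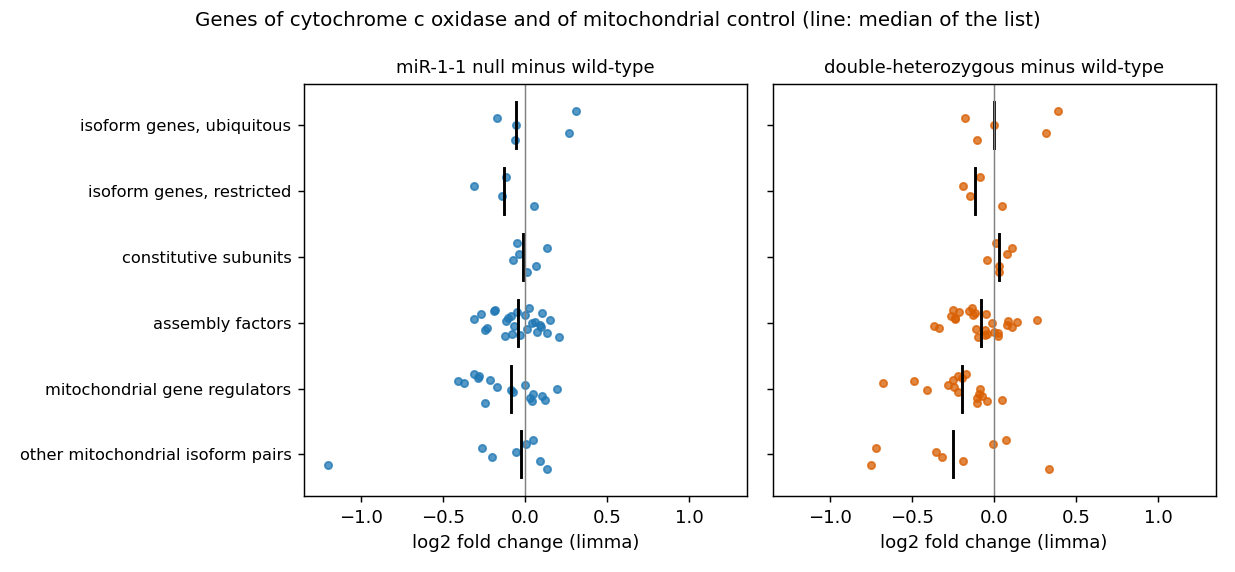
Log2 fold change against wild-type (x axis) of the isoform genes, the other subunits, the assembly factors, the regulators and other mitochondrial isoform genes (y axis), 1 point per gene, with the median of each group as a black line. The constitutive subunits stay within 0.134 of 0, and 16 of 17 regulators lie below 0 in double-heterozygous hearts.

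Factors known to act on the *Cox4i2* promoter were measured for 4 of 5 genes, and 0 of 4 passed an adjusted p under 0.05. *Rbpj* was 0.31 higher and *Epas1*, which encodes HIF-2α, 0.28 lower on the log2 scale in null hearts, with adjusted p of 0.873 and 0.872 in limma, and in double-heterozygous hearts they were at 0.24 and -0.11. With arrays left out *Rbpj* ranged from 0.20 (without wild-type replicate 2) to 0.45 in null and from 0.13 to 0.38 in double-heterozygous hearts, and *Epas1* in null hearts was at -0.17 without null replicate 5.

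In whole hearts, fewer cells of a type and less RNA per cell cannot be told apart, so the levels of marker genes are set beside the values above. None of the 10 cardiomyocyte markers was near background in any genotype, and their mean log2 level lay between 10.67 and 10.76 on all 9 arrays. It was 10.67 to 10.72 in wild-type, 10.73 to 10.76 in null and 10.67 to 10.69 in double-heterozygous hearts, while the log2 differences of single markers ran from -0.08 to 0.26 in null and, from *Myoz2* to *Nppa*, from -0.25 to 0.27 in double-heterozygous hearts. Of 13 skeletal muscle markers 3 were near background in wild-type (*Myh1*, *Myh3*, *Myh4*), 4 in null (also *Myog*) and 5 in double-heterozygous hearts (also *Myog* and *Myh2*). The mean log2 level of that list was 3.20 to 3.26 in wild-type, 3.18 to 3.41 in null and 3.21 to 3.28 in double-heterozygous hearts. *Myod1*, a factor that sets up skeletal muscle, was 0.50 higher on the log2 scale in null (limma unadjusted p = 0.00249, adjusted p = 0.702) and 0.30 higher in double-heterozygous hearts (0.0370 and 0.435), with all mutant arrays above all wild-type arrays, and *Myh8* was 0.56 lower in null hearts (adjusted p = 0.871). Of the 13 markers 9 were above 0 in null and 6 in double-heterozygous hearts, beside 48.0% and 44.6% of all genes. *Acta1*, for example, was at -0.62 and -0.52, with overlapping arrays. The part of skeletal muscle cells in the differences was not tested.

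The mean level of a list of smooth muscle markers moved with several of the isoform genes. The mean log2 level of the 8 markers was 5.54 to 5.98 in wild-type, 6.02 to 6.10 in null and 5.95 to 6.30 in double-heterozygous hearts, with none of the 8 near background. *Cnn1*, *Acta2* and *Myl9* had the largest differences, 1.41, 0.78 and 0.79 in null hearts, and *Cnn1* and *Myl9* passed the study's thresholds there. In the same hearts *Myh11*, the defining smooth muscle myosin, was at -0.08, *Actg2* at -0.33 and *Smtn* at -0.06. Above 0 were 5 of the 8 markers in null and 7 in double-heterozygous hearts. The list's mean thus does not stand for every marker. *Cnn1* and *Acta2* are also made by immature cardiomyocytes. Over the 9 arrays the list's level had an r of 0.927 with *Cox8a* and 0.829 with *Cox6a1*, and of 0.792 and 0.469 without the genotype means, and with *Cox7a1* of -0.599 and 0.222. With *Cox6a2* it was -0.831, or -0.566 without the genotype means, with *Cox4i1* -0.705 and -0.450, and with *Cox4i2* -0.380 and -0.790. When that level was entered as a covariate, a choice made once the data had been seen, the log2 differences of *Cox8a* were 0.13 and 0.17 in null and double-heterozygous hearts and those of *Cox6a1* 0.17 and 0.20, while those of *Cox7a1* were -0.34 and -0.22. *Cox6a2* was then at -0.07 and -0.06, in place of -0.15 and -0.14. *Cox4i2* was at 0.44 and 0.52 (limma unadjusted p = 0.0437 and 0.0351), in place of 0.05 in both. Among the wild-type arrays, replicate 1 had the highest marker level (deviation 0.027 against -0.421 and -0.417) and the lowest *Cox4i2*. That array also sets the sign of the *Cox4i2* difference without a covariate. With brown fat markers as the covariate *Cox4i2* was at -0.05 and -0.10, and with cardiomyocyte markers at -0.38 and 0.25. With smooth muscle markers as the covariate the balance of *Cox6a2* minus *Cox6a1* was -0.24 and -0.26. The level of the smooth muscle list itself differed with genotype. Its part in the differences therefore cannot be told apart from that of genotype, and it was not tested.

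**Figure D5:**
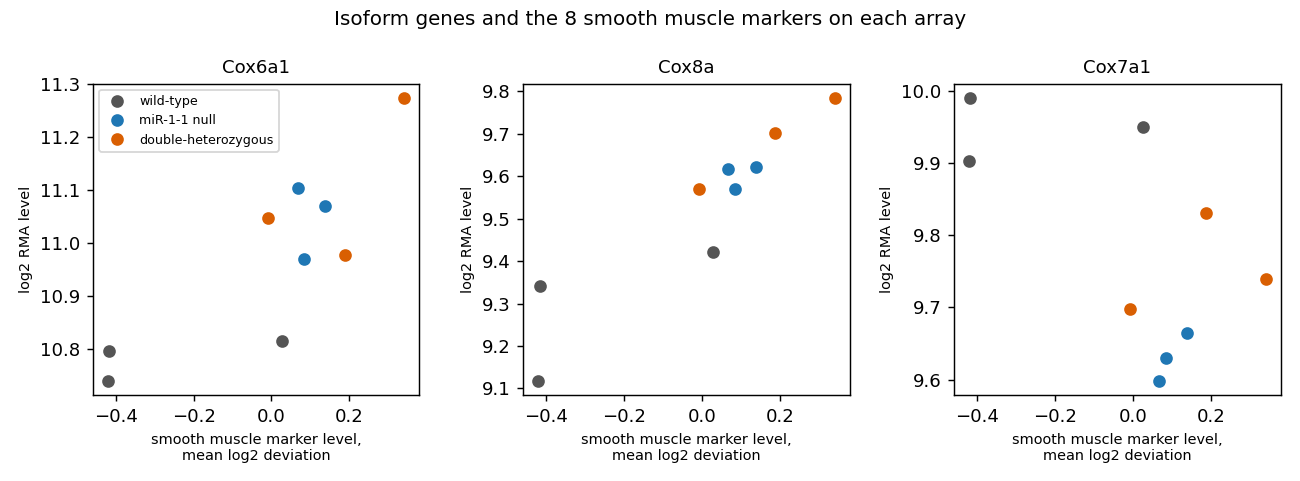
Log2 RMA level of *Cox6a1*, *Cox8a* and *Cox7a1* (y axes) against the mean log2 deviation of 8 smooth muscle markers from their own means (x axes) on each of the 9 arrays. In *Cox8a* the arrays line up with the marker level (r = 0.927), wild-type replicates 2 and 3 being lowest on both axes, while in *Cox7a1* the 3 wild-type arrays are the highest, at marker deviations of -0.42, -0.42 and 0.03.

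Other marker lists also moved with single genes. The macrophage list was lower in double-heterozygous hearts (mean log2 level 3.74 to 3.81) than in wild-type (3.95 to 4.38) and null hearts (3.96 to 4.09), and had an r of -0.838 with *Cox8a* and 0.872 with *Cox4i1*. That of the 7 fibroblast markers, at 7.52 to 7.63 in wild-type, 7.46 to 7.49 in null and 7.13 to 7.48 in double-heterozygous hearts, had an r of -0.856 with *Cox6a1*, -0.847 without the genotype means. The 10 markers of mural cells, the cells in which *Cox4i2* is known to be made, were not near background, and their mean log2 level was 5.47 to 5.57 in wild-type, 5.35 to 5.44 in null and 5.20 to 5.46 in double-heterozygous hearts. Every mutant array was thus below every wild-type array, though the nearest were at 5.455 and 5.467. Of the 10 genes 2 in null and 0 in double-heterozygous hearts were above 0, beside 48.0% and 44.6% of all genes. The list had an r of -0.806 with *Cox8a*, 0.776 with *Cox4i1* and -0.216 with *Cox4i2*. Without the genotype means these were -0.438, 0.574 and -0.207. The part of these cells in the differences was not tested.

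*Cox8b* and *Cox7a1* are also known from brown fat, which lies close to the newborn heart. *Elovl3*, *Zic1*, *Adipoq* and *Cidec*, 4 of 10 brown fat markers, were near background in every genotype, and the mean log2 level of the list was 3.40 to 3.76 in wild-type, 3.47 to 3.56 in null and 3.43 to 3.55 in double-heterozygous hearts. Wild-type replicate 1 had the highest mean, with *Ucp1* at 4.95 against 2.34 to 3.93 on the other 8 arrays. *Cidea* was not highest there, at 5.76 against 5.81 in wild-type replicate 2 and 5.92 in null replicate 4. Wild-type replicate 1 also had the lowest *Cox4i2*, and the list's r with *Cox4i2* was -0.892. With the list's level as a covariate the log2 difference of *Cox7a1* in null hearts was -0.33, beside -0.32 without it.

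The hearts also differed in sex. *Xist*, made from the inactive X chromosome of females, was at 7.74 in wild-type replicate 1 and 8.31 in double-heterozygous replicate 7 and below 2 on the other 7 arrays, so all null arrays were male. With *Eif2s3y*, a gene of the Y chromosome, entered as a covariate, *Cox6a1* was at 0.24 in null hearts, *Cox8a* at 0.34 and *Cox7a1* at -0.30.

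The genes whose levels ran most like those of the isoform genes over the 9 arrays were looked for among 10160 annotated genes at or above the median level. *Cox8a* was followed most closely by *Dcps*, a decapping scavenger enzyme (r = 0.968), and by the smooth muscle calponin *Cnn1* (0.937), and *Cox6a1* by *Tmem208* (0.941) and *Zfp747* (0.912). *Cox6a2* had *Sbk3*, a heart kinase gene (0.964), and *Heyl*, a Notch target (0.959), and *Cox7a1* had *Abraxas1* (0.932) and *Csf2rb* (0.922). For *Cox4i1* they were *Ssu2* (0.967) and *Pros1* (0.954), for *Cox8b* *Shld1* (0.913) and *Dpt* (0.910), and for *Cox7a2l* *Gpalpp1* (0.937) and *Lrrc17* (0.919). Without the 2 arrays farthest from the median these r lay between 0.758 and 0.956. That was not so for *Cox4i2*, whose likeness to *Jtb* went from 0.962 to -0.386 and to *Slc25a44* from 0.940 to 0.112, nor for *Cox7a2*, whose likeness to *Sec62* went from 0.962 to -0.239 and to *Coa7* from 0.961 to 0.706. Without the genotype means the r of *Cox7a1* was 0.447 with *Abraxas1* and 0.619 with *Csf2rb*, and that of *Cox8a* with *Cnn1* was 0.752. The rest lay between 0.809 and 0.968. The r of *Cox7a1* thus largely carried the genotype differences described above. All these likenesses are the highest of 10160 correlations each and are given as descriptions only.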

How the data were processed

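The authors extracted total RNA with TRIzol, passed it over a column that takes out genomic DNA, amplified the RNA, hybridized it to Affymetrix Mouse Gene ST 2.0 arrays and normalized all arrays by RMA. The deposited values are log2 expression levels per probe set, made with Affymetrix Power Tools 1.12.0 per the submitters' processing notes. For the array's genome build, none of the sources used here gives one.

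The deposited values were used unchanged. Of 41345 probe sets, 23521 have 1 gene symbol in the platform table, and 23328 of these were matched by gene ID to the RefSeq gene table. The brightest probe set per gene was kept, which left 22180 genes, with no filter on dim genes. All 9 arrays were fitted together with limma 3.58.1 in R 4.3.3 (lmFit, eBayes, 1 mean per genotype, 3 contrasts), and p-values were adjusted by Benjamini-Hochberg over all genes. The fit was tested on simulated data. Exact permutation tests were two-sided. Promoter motifs, correlations and pair differences were computed in Python 3.11.15, and figures drawn with matplotlib 3.10.9. A gene counted as near background when its mean did not exceed the upper quartile of 1394 olfactory and vomeronasal receptor genes, 1.74 to 1.95 on the log2 scale by genotype. The number of arrays limits the precision. No 2 arrays of the 36 pairs held more than 6.92% equal values, at a tolerance of 1e-06, so none was taken for a repeat.

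The 9 genes, the 8 pathway lists and the 9 marker lists were chosen with earlier results of these data known. The genes named are the 9 genes, up to 3 genes with the smallest p from each pathway list in each contrast with wild-type, and the 2 genes most like each isoform gene by Pearson's r, without predicted models and small RNAs. *Cox5a*, *Ndufa4*, *Pdk2*, *Slc25a4*, *Slc25a5*, the markers named and *Xist* were named after their values were seen. A comparison of the proteins was planned and not run here. Alternatives were another choice of arrays, moderation, test, filter, normalization, probe set, weights and threshold, *Eif2s3y* as a covariate and leaving out each array, and 3 marker covariates were added after seeing the data.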

Additional observations from a re-analysis of the deposited data

How the results depend on the processing

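With limma, the tool the paper names for its arrays, the genes past the study's thresholds were 28 in null and 120 in double-heterozygous hearts. Between the mutants they were 67. With an unpaired t-test, which the paper names for its statistics in general, they were 5, 29 and 10. That test left 0 genes after Benjamini-Hochberg adjustment. The counts past the study's thresholds ranged up to 56, 132 and 98 over the settings, and at an adjusted p under 0.05 up to 1, 13 and 0. In all 144 recounts under other settings 0 of 9 genes passed an adjusted p under 0.05 or the study's thresholds. Of 378 log2 differences of the 9 genes under other settings 355 kept their sign, as did 226 of 243 with an array left out. Many of these signs could not change. Settings that alter only the test, the moderation, the genotypes in the fit, the genes tested or the use of several probe sets return the same log2 difference. So does leaving out an array of the genotype not compared. Without wild-type replicate 1, *Cox4i2* was -0.17 in null and -0.17 in double-heterozygous hearts (leave-one-out ranges -0.17 to 0.24 and -0.17 to 0.23), and it was -0.0528 in null hearts with *Eif2s3y*, -0.0548 and -0.10 with brown fat markers, and -0.38 in null hearts with cardiomyocyte markers as a covariate. *Cox7a2* in double-heterozygous hearts was -0.0177 with median centring and ranged from -0.0045 to 0.0071 with arrays left out. *Cox8b* in null hearts was 0.0453 with cardiomyocyte markers. The rest lay between the 2 mutants. There *Cox4i2* was 0.0434 with quantile normalization and 0.0429 with cyclic loess, 0.10 with *Eif2s3y*, 0.0773 with smooth muscle and 0.63 with cardiomyocyte markers. *Cox6a2* was -0.0146 with quantile normalization, -0.0074 with median centring and -0.0027 with brown fat markers. *Cox7a2l* was 0.0532 with quantile normalization, 0.0574 with cyclic loess, 0.0166 with *Eif2s3y*, 0.0091 with brown fat and 0.13 with cardiomyocyte markers. *Cox8b* was -0.0017 with *Eif2s3y* and -0.21 with cardiomyocyte markers, which gave 0.0474 for *Cox4i1* and -0.15 for *Cox8a*. With arrays left out the ranges between the mutants were -0.0323 to 0.0351 for *Cox4i2*, -0.0351 to 0.11 for *Cox6a1*, -0.0304 to 0.0477 for *Cox6a2*, -0.11 to 0.0871 for *Cox7a2l* and -0.0357 to 0.0703 for *Cox8b*. The cause was not tested.

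The balance kept its sign for the pairs of subunits 6a, 7a and 8 against wild-type in every setting run. With arrays left out, *Cox6a2* minus *Cox6a1* ranged from -0.50 to -0.36 in null and -0.54 to -0.35 in double-heterozygous hearts, *Cox7a1* minus *Cox7a2* from -0.29 to -0.22 and -0.22 to -0.17, and *Cox8b* minus *Cox8a* from -0.48 to -0.35 and -0.53 to -0.40. With smooth muscle markers as a covariate *Cox6a2* minus *Cox6a1* was -0.24 and -0.26, *Cox8b* minus *Cox8a* -0.34 in double-heterozygous hearts, and *Cox4i2* minus *Cox4i1* 0.44 and 0.55, and 0.11 between the mutants.

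The unadjusted p of *Cox6a1* in null hearts passed 0.05 without wild-type replicate 2 (0.0677), null replicate 5 (0.0632) or null replicate 6 (0.0734), that of *Cox8a* without wild-type replicate 2 (0.0576), and that of *Cox7a1* in double-heterozygous hearts when any 1 of 7 of the 9 arrays was left out, at up to 0.111. It also passed 0.05 for *Cox6a1* in null hearts with quantile normalization (0.0962) and with *Eif2s3y* (0.0592), smooth muscle (0.271) or cardiomyocyte markers (0.176) as a covariate, in double-heterozygous hearts with smooth muscle markers (0.241), and for *Cox8a* with smooth muscle markers (0.346 and 0.263). For *Cox7a1* in double-heterozygous hearts it did so with quantile normalization (0.0620), cyclic loess (0.0928), only 2 genotypes in the fit (0.0553), *Eif2s3y* (0.0533), smooth muscle (0.144) or cardiomyocyte markers (0.0703), and in null hearts with cardiomyocyte markers (0.0885). Each gene had 1 probe set of its own, so the next brightest could not be used and the mean of probe sets is the same value. No paired analysis was possible because the genotypes share no replicate numbers. Low signal limits *Cyct*, and *Cox4i2* was the dimmest of the 9 genes, though above the median gene level of 2.885. Fold changes of dim probe sets are compressed on arrays.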

Other observations

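Other mitochondrial proteins with a muscle form and a general form did not all differ in the way of the oxidase pairs. *Ckmt2*, which encodes the creatine kinase of muscle mitochondria, was at 7.45, 7.57 and 7.63 in wild-type, 6.33, 6.18 and 6.54 in null, and 6.63, 7.55 and 6.21 in double-heterozygous hearts. All null arrays were below all wild-type arrays, at a log2 difference of -1.20 (limma unadjusted p = 0.00194, adjusted p = 0.702), which passed the study's thresholds, while the double-heterozygous arrays overlapped them through replicate 8, at -0.75 (adjusted p = 0.393), or -1.13 without replicate 8 and -0.46 without replicate 9. *Ckmt1*, the ubiquitous form of that kinase, was dim, at 3.05, 3.19 and 3.23 in wild-type, 3.40, 3.19 and 3.28 in null and 3.54, 3.35 and 3.58 in double-heterozygous hearts, which gave 0.13 and 0.33. *Slc25a4*, the ADP/ATP carrier of heart and muscle, and *Slc25a5*, its general form, differed from wild-type hearts by 0.00 and 0.05 in null and by -0.01 and 0.07 in double-heterozygous hearts, with overlapping arrays. *Pdk4*, a kinase that turns off pyruvate dehydrogenase in heart and muscle, was at 8.92, 8.77 and 8.79 in wild-type and 7.90, 8.44 and 7.98 in double-heterozygous hearts. That is a log2 difference of -0.72 with an adjusted p of 0.171 in limma and no overlap. In null hearts it was -0.26 (adjusted p = 0.912), also with no overlap. *Pdk2*, listed beside it, was at -0.35 in double-heterozygous and -0.06 in null hearts.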
